A study of Homo sapiens with 10 samples.

Results

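Adherens junctions hold neighbouring cells together, and 10 genes that build them are described here: the cadherins CDH1, CDH2, CDH5 and CDH13, the catenins CTNNA1, CTNND1 and JUP, the nectins NECTIN2 and NECTIN3, and the nectin partner AFDN. They were chosen by name as adherens junction genes other than beta-catenin, and each had 1 line in the count table, 10 of 58735 lines in all. The measurement was RNA sequencing of human brain cells recorded as an endothelial cell line and called HCMECs in the study's design, with no line name given. In 5 libraries the cells carried siUSP9X, a small interfering RNA (siRNA) against the deubiquitinase USP9X, and in the other 5 they carried siCtrl, a control siRNA. All 10 libraries came from cells that were transfected for 48 h and then given the Wnt ligand Wnt3a for 12 h, so both groups share the Wnt3a exposure and differ in the siRNA. Nothing in the sources used here tells if libraries of 1 group came from separate cultures, so the p-values measure the spread between libraries, which may be technical. The number of siRNAs used against USP9X is not given there either.

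Classical cadherins span the membrane, bind their own kind on the next cell and hold catenins on their cytoplasmic tails. p120 catenin (encoded by CTNND1) binds next to the membrane and keeps cadherins at the surface, beta-catenin or plakoglobin (JUP) binds further along the tail, and alpha-catenin (CTNNA1) links that complex to actin. Nectins form a parallel adhesion system, in which immunoglobulin-like receptors are tied to actin by afadin (AFDN). VE-cadherin (CDH5) is the cadherin that defines endothelial junctions, N-cadherin (CDH2) also joins endothelial cells to mural cells, and E-cadherin (CDH1) belongs to epithelium. The mouse counterpart of USP9X is known to remove ubiquitin from afadin, a process on protein that mRNA counts do not show.

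USP9X mRNA stood at 36.5, 68.8, 27.6, 22.4 and 20.7 CPM in siUSP9X replicates 1 to 5, against 416, 283, 330, 324 and 352 CPM in siCtrl replicates 1 to 5 (CPM are counts per 1e+06 counts of the scaled library). This was a log2 change of -3.28 ± 0.32 (SE, adjusted p = 0.000403 with edgeR), and -3.67 without siUSP9X replicate 2. Library totals ran from 15958362 to 20442278 counts in siUSP9X and from 17716250 to 26467787 counts in siCtrl. siUSP9X replicate 2 stood apart: its share of ribosomal protein mRNA was 2.15%, where the remaining siUSP9X libraries had 4.48 to 5.19% and siCtrl 4.85 to 6.45%, and its share of the mitochondrial rRNA MT-RNR2 was 1.40%, where the remaining siUSP9X libraries had 0.450 to 0.573% and siCtrl 0.380 to 0.446%. The fold changes of the members are therefore given with and without that library. The endothelial label was only partly borne out by mRNA. Of 14 endothelial markers, 11 averaged under 1 CPM in both groups, among them CDH5, PECAM1 and KDR, while ESAM, ENG and EGFL7 were well measured. The summed level of the 14 ran from 109.8 to 254.2 CPM in siUSP9X and from 236.4 to 299.5 CPM in siCtrl. ESAM, ENG and EGFL7 stood at 67.2, 39.3 and 2.10 CPM in siUSP9X replicate 2. In the other siUSP9X libraries they stood at 145.4, 58.7 and 14.1 CPM or more. Of 13 epithelial markers, KRT8, KRT18 and KRT7 were abundant (averages of 1581, 946 and 512 CPM in siUSP9X and 2156, 1580 and 769 CPM in siCtrl), while 8 averaged under 1 CPM in both groups, KRT5, KRT14 and GRHL2 with 0 counts throughout. Fewer cells of a type and less RNA per cell cannot be told apart in such bulk libraries.

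Of the 10 genes, 2 rose in siUSP9X cells, the cadherin CDH13 and the catenin CTNND1, and none fell. Of the 10, 9 passed the low-count filter and could be tested, and CDH1 did not. In the test of all 13934 genes (edgeR quasi-likelihood, Benjamini-Hochberg adjusted p under 0.05), 7.31% were called, 4.09% higher and 3.22% lower, so 2 of 9 is read against those shares. The 0 lower members stayed 0 at an unadjusted p under 0.05 with edgeR, and with DESeq2 and limma-voom. The median log2 fold change of the 9 members was 0.36, with 8 above 0, against a median of 0.026 for all tested genes, 52.4% of which were above 0. Without siUSP9X replicate 2, 3 of 9 members were higher (CDH13, CTNND1 and NECTIN3) and 0 lower, where 23.4% of 14086 tested genes were called, 11.9% higher and 11.5% lower. The members' median was then 0.25, with all 9 above 0, as were 50.9% of tested genes. The values of the groups did not overlap for 2 of the 9, both above, where 7.79% of tested genes lay above and 6.85% below, and without siUSP9X replicate 2 they did not for the same 2, where 10.4% lay above and 9.48% below.

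**Figure D1:**
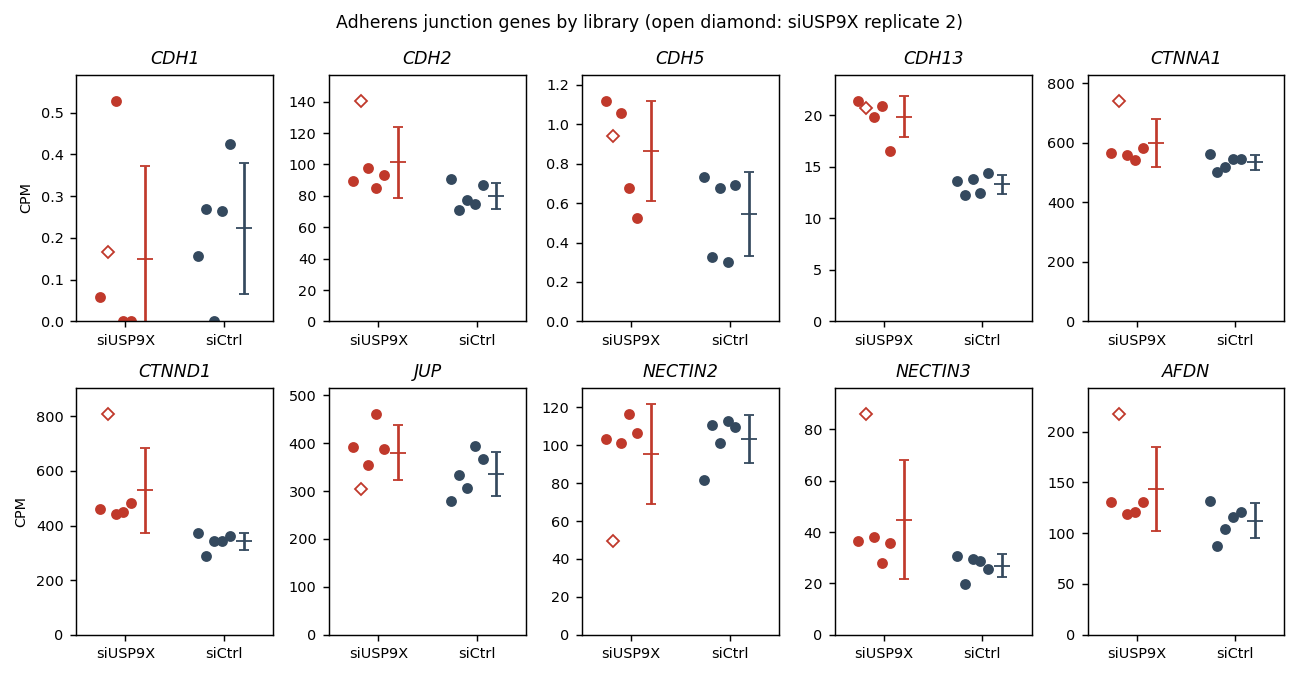
CPM of the 10 adherens junction genes in each library (points), with the group mean ± SD beside them (bars), siUSP9X at left and siCtrl at right; the lower SD bar of CDH1 is clipped at 0 in siUSP9X. The groups do not overlap for CDH13 and CTNND1, and siUSP9X replicate 2 (open diamond) is the highest library for CDH2, CTNNA1, CTNND1, NECTIN3 and AFDN and the lowest for NECTIN2.

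**Figure D2:**
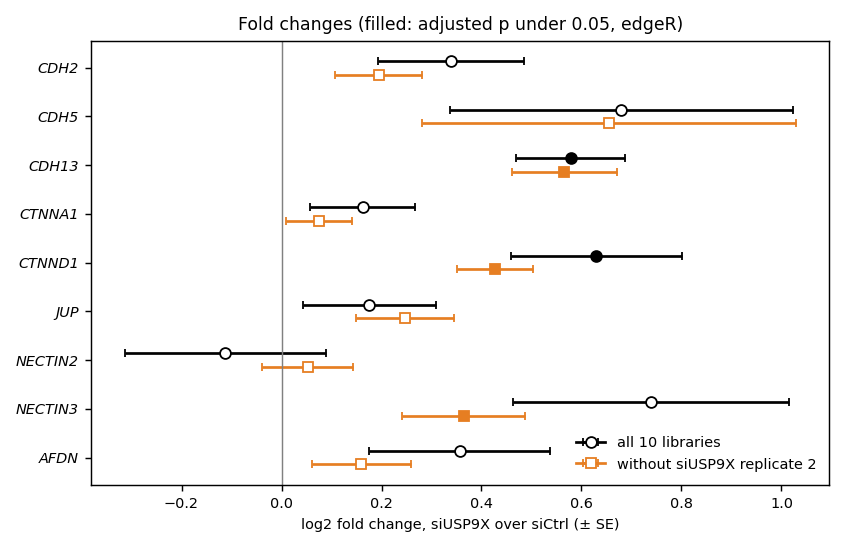
Log2 fold change of siUSP9X over siCtrl (± SE) for the 9 tested members, with all 10 libraries (circles) and without siUSP9X replicate 2 (squares); filled symbols have an adjusted p under 0.05. CDH13 has nearly the same value in both fits (0.58 and 0.57), NECTIN3 moves to 0.36 from 0.74, and NECTIN2 changes sign.

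T-cadherin, the product of CDH13, is a cadherin without a cytoplasmic tail that is held in the membrane by a lipid anchor and binds adiponectin and LDL on vascular cells. CDH13 (ENSG00000140945.16, chromosome 16, 82626803 to 83800640, plus strand, GRCh38) stood at 21.4, 20.7, 19.9, 20.95 and 16.5 CPM in siUSP9X replicates 1 to 5, against 13.65, 12.3, 13.8, 12.5 and 14.4 CPM in siCtrl replicates 1 to 5. Every siUSP9X library lay above every siCtrl library, and replicate 2 lay inside the range of the other 4 siUSP9X libraries. CDH13 averaged 19.9 ± 1.97 CPM in siUSP9X and 13.3 ± 0.923 CPM in siCtrl (SD, n = 5 each), which is 1.49-fold higher, with a log2 fold change of 0.58 ± 0.11 (SE, adjusted p = 0.0111 with edgeR). The call held in all 10 fits with 1 library removed, and its log2 fold change then ran from 0.55 to 0.64.

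p120 catenin, the product of CTNND1, slows the internalisation of cadherins by covering a motif in their tails, and VE-cadherin and N-cadherin both bind it. CTNND1 (ENSG00000198561.13, chromosome 11, 57753243 to 57819546, plus strand) stood at 459.6, 807, 443, 450.1 and 482 CPM in siUSP9X replicates 1 to 5, against 371, 289.6, 342, 344 and 360.0 CPM in siCtrl replicates 1 to 5. All siUSP9X libraries lay above all siCtrl libraries, and replicate 2 lay far above the other 4. The averages were 528 ± 156 CPM in siUSP9X and 341 ± 31.4 CPM in siCtrl (SD, n = 5 each), with a log2 fold change of 0.63 ± 0.17 (SE, adjusted p = 0.0474 with edgeR). Without siUSP9X replicate 2 the log2 fold change was 0.43 ± 0.077 (SE, adjusted p = 0.000649 with edgeR). Leaving out any 1 of the other 9 libraries ended the call, with log2 fold changes of 0.57 to 0.69 and adjusted p-values of 0.0512 to 0.121. The readthrough gene TMX2-CTNND1, which shares 321 bases of exon with CTNND1, had 2 counts over all libraries, and AP001931.1, which shares 289 bases, had 21.

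The 2 other catenins did not pass the threshold. CTNNA1 (chromosome 5, 138610967 to 138935034, plus strand) stood at 566, 740.5, 561, 543 and 582 CPM in siUSP9X replicates 1 to 5, against 564, 500.7, 519, 544 and 546 CPM in siCtrl replicates 1 to 5. In siUSP9X 3 of 5 libraries lay above every siCtrl library, replicate 2 by far the most. Its log2 fold change was 0.16 ± 0.10 (SE, adjusted p = 0.314 with edgeR), and 0.075 ± 0.066 without siUSP9X replicate 2. JUP (chromosome 17, 41754604 to 41786931, minus strand), whose product plakoglobin serves both adherens junctions and desmosomes, stood at 392.1, 304, 353, 460.2 and 389 CPM in siUSP9X replicates 1 to 5, against 279, 334, 306.5, 394 and 367 CPM in siCtrl replicates 1 to 5. The groups overlapped, with siUSP9X replicate 2 at the low end of its own group. The log2 fold change of JUP was 0.18 ± 0.13 (SE, adjusted p = 0.388 with edgeR), and 0.25 ± 0.097 without siUSP9X replicate 2 (adjusted p = 0.0748). Beta-catenin mRNA (CTNNB1), the partner that competes with plakoglobin for the cadherin tail, did not pass the threshold in either fit. Its log2 fold change was 0.17 ± 0.23 (SE) over all 10 libraries. Once siUSP9X replicate 2 was left out it was -0.16 ± 0.066 (SE, adjusted p = 0.0967 with edgeR). CTNNB1 stood at 807 CPM in siUSP9X replicate 2. The other siUSP9X libraries, at 340 to 373 CPM, all lay below the siCtrl range of 383 to 407 CPM.

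Ratios of 2 members within a library do not depend on how libraries are scaled, and are given as a description with no test. The log2 ratio of CTNND1 to CTNNA1 averaged -0.21 ± 0.19 in siUSP9X and -0.65 ± 0.082 in siCtrl (SD, n = 5 each). The siUSP9X libraries ran from -0.34 to 0.12 and the siCtrl libraries from -0.79 to -0.60, with no overlap, and without siUSP9X replicate 2 the siUSP9X average was -0.30 ± 0.031 (SD, n = 4). So within these libraries p120 catenin mRNA was higher relative to alpha-catenin mRNA in siUSP9X cells. The log2 ratio of JUP to CTNND1 averaged -0.45 ± 0.56 in siUSP9X and -0.029 ± 0.26 in siCtrl (SD, n = 5 each), and the groups overlapped. Without siUSP9X replicate 2, whose ratio was -1.41, the siUSP9X average was -0.21 and the difference between groups was -0.18 in place of -0.42. The log2 ratio of CTNND1 to CDH2 averaged 2.37 ± 0.12 in siUSP9X and 2.09 ± 0.078 in siCtrl (SD, n = 5 each). Its groups overlapped, with the lowest siUSP9X library at 2.18 and the highest siCtrl library at 2.21, and the difference was 0.27, or 0.23 once siUSP9X replicate 2 was left out. The log2 ratio of CDH13 to CDH2 averaged -2.33 ± 0.31 in siUSP9X and -2.58 ± 0.091 in siCtrl (SD, n = 5 each), with siUSP9X replicate 2 the lowest of all at -2.76 where CDH2 was at its highest. Without that library the siUSP9X average was -2.22.

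**Figure D3:**
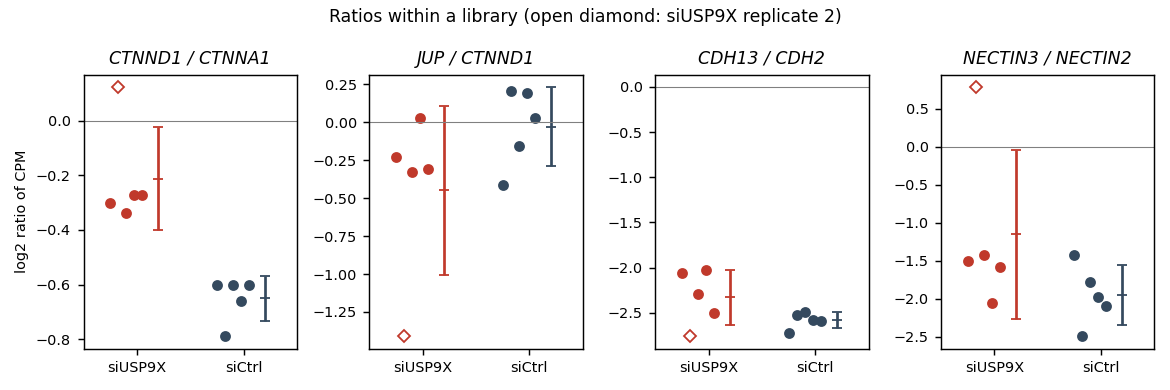
Log2 ratio of the CPM of 2 members within each library (points) with the group mean ± SD (bars), siUSP9X at left and siCtrl at right, and siUSP9X replicate 2 as an open diamond. The ratio of CTNND1 to CTNNA1 separates the groups, from -0.34 to 0.12 in siUSP9X and from -0.79 to -0.60 in siCtrl, while the other 3 ratios overlap.

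N-cadherin was the best measured classical cadherin. CDH2 (ENSG00000170558.8, chromosome 18, 27950966 to 28177446, minus strand) stood at 89.5, 140.4, 97.7, 85.3 and 93.4 CPM in siUSP9X replicates 1 to 5, against 90.4, 70.7, 77.5, 74.5 and 87.1 CPM in siCtrl replicates 1 to 5. The groups overlapped, with replicate 2 the highest. The log2 fold change was 0.34 ± 0.15 (SE, adjusted p = 0.157 with edgeR) and 0.19 ± 0.087 without siUSP9X replicate 2 (adjusted p = 0.116), so CDH2 did not pass the threshold in either fit.

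VE-cadherin mRNA was close to the detection limit of these libraries. CDH5 (ENSG00000179776.18, chromosome 16, 66366622 to 66404786, plus strand) had 19, 17, 18, 11 and 9 counts in siUSP9X replicates 1 to 5, against 14, 6, 12, 8 and 13 counts in siCtrl replicates 1 to 5. Pooled over each group this is 74 counts in siUSP9X, or 0.865 CPM (exact 95% Poisson interval 0.679 to 1.09), and 53 counts in siCtrl, or 0.527 CPM (0.394 to 0.689). The intervals cover counting error only. Its log2 fold change was 0.68 ± 0.34 (SE, adjusted p = 0.214 with edgeR), and 0.66 ± 0.37 without siUSP9X replicate 2.

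E-cadherin mRNA was lower still and could not be tested across genes. CDH1 (ENSG00000039068.18, chromosome 16, 68737225 to 68835548, plus strand) had 1, 3, 9, 0 and 0 counts in siUSP9X replicates 1 to 5, against 3, 5, 0, 7 and 8 counts in siCtrl replicates 1 to 5. Both groups held libraries at 0, for which 3 counts over a group would be 0.0351 CPM in siUSP9X and 0.0298 CPM in siCtrl. The pooled level was 0.152 CPM in siUSP9X (exact 95% Poisson interval 0.0809 to 0.260) and 0.228 CPM in siCtrl (0.145 to 0.343). The difference in mean CPM was -0.073 (exact two-sided permutation p = 0.595, where 0.00794 is the smallest p that 5 against 5 libraries allow), so no difference was detectable at this depth. Exons of CDH1, CDH2, CDH13, CTNNA1 and NECTIN2 overlap those of genes on the opposite strand by 75 to 445 bases (0 to 33 counts per such gene over all libraries), and the sources used here do not give whether counting used strand.

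NECTIN3 and NECTIN2, which bind each other across the junction, differed in how they behaved in siUSP9X replicate 2. NECTIN3 (ENSG00000177707.10, chromosome 3, 111070071 to 111275563, plus strand) stood at 36.45, 85.8, 37.9, 28.04 and 35.7 CPM in siUSP9X replicates 1 to 5, against 30.6, 19.7, 29.6, 28.7 and 25.7 CPM in siCtrl replicates 1 to 5. siUSP9X replicate 4 lay within the siCtrl range and the other 4 above it. The log2 fold change was 0.74 ± 0.28 (SE, adjusted p = 0.116 with edgeR), and without siUSP9X replicate 2 it was 0.36 ± 0.12 (adjusted p = 0.0394), past the threshold. NECTIN2 (ENSG00000130202.9, chromosome 19, 44846175 to 44889228, plus strand) stood at 103.5, 49.7, 101.4, 116.4 and 106.6 CPM in siUSP9X replicates 1 to 5, against 81.9, 110.8, 101.4, 112.6 and 109.5 CPM in siCtrl replicates 1 to 5. The groups overlapped: siUSP9X replicate 2 was the lowest library, and the other 4 siUSP9X libraries ran from 101.4 to 116.4 CPM, against 81.9 to 112.6 CPM in siCtrl. NECTIN2 had a log2 fold change near 0, at -0.11 ± 0.20 (SE, adjusted p = 0.725 with edgeR) and 0.052 ± 0.090 without siUSP9X replicate 2.

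The log2 ratio of NECTIN3 to NECTIN2 averaged -1.15 ± 1.11 in siUSP9X and -1.95 ± 0.40 in siCtrl (SD, n = 5 each), and the groups overlapped. It stood at 0.79 in siUSP9X replicate 2 and between -2.05 and -1.42 in replicates 1, 3, 4 and 5, which averaged -1.64. Relative to the mean of the other 4 siUSP9X libraries, replicate 2 differed by a log2 ratio of 1.31 for NECTIN3 and -1.105 for NECTIN2. Over all tested genes the 5th and 95th percentiles of this ratio were -1.97 and 1.30, so NECTIN3 lay near the upper end. AFDN (0.79), CTNND1 (0.81), CDH2 (0.62) and CTNNA1 (0.40) were raised in replicate 2 too, CDH5 (0.16) and CDH13 (0.073) little, and JUP (-0.39) was lowered. The part that the RNA of this library had in the values of these genes was not tested.

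AFDN did not pass the threshold. Afadin carries a PDZ domain for nectin tails and also binds Rap1, a small GTPase that strengthens endothelial junctions. AFDN (ENSG00000130396.20, chromosome 6, 167826922 to 167972023, plus strand) stood at 130.6, 217, 119, 120.8 and 130.5 CPM in siUSP9X replicates 1 to 5, against 132, 87.45, 104, 116 and 121 CPM in siCtrl replicates 1 to 5. Except for replicate 2 every siUSP9X library lay within the siCtrl range. The log2 fold change was 0.36 ± 0.18 (SE, adjusted p = 0.216 with edgeR), and 0.16 ± 0.0995 without siUSP9X replicate 2 (adjusted p = 0.266). The log2 ratio of NECTIN3 to AFDN averaged -1.76 ± 0.29 in siUSP9X and -2.07 ± 0.16 in siCtrl (SD, n = 5 each), with overlap between groups, and the siUSP9X average was -1.87 without replicate 2.

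Corrected for transcript length, plakoglobin and alpha-catenin were the most abundant members, and the order of the 10 genes was the same in both groups. Levels per length are CPM per kilobase of all annotated exons, a scale that ignores which isoforms the cells use. In siUSP9X cells JUP averaged 76.8 ± 11.6, CTNNA1 67.8 ± 9.13 and CTNND1 60.1 ± 17.8 CPM per kilobase (SD, n = 5), and these 3 overlapped. In siCtrl cells they averaged 68.01 ± 9.33, 60.6 ± 2.81 and 38.8 ± 3.57 CPM per kilobase (SD, n = 5), and CTNND1 lay below the other two in every library. The ranges of NECTIN2 and CDH2 overlapped in siUSP9X, as did those of AFDN and NECTIN3, whereas no 2 neighbours from CTNNA1 down to CDH5 overlapped in siCtrl. At the low end CDH13 averaged 1.78 ± 0.176 CPM per kilobase in siUSP9X and 1.19 ± 0.0825 in siCtrl (SD, n = 5 each). CDH5 averaged 0.142 ± 0.0417 CPM per kilobase in siUSP9X and 0.0896 ± 0.0349 in siCtrl (SD, n = 5 each), so N-cadherin, at 20.5 ± 4.51 and 16.2 ± 1.70 CPM per kilobase, was far more abundant in both groups than the cadherin that defines endothelium.

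**Figure D4:**
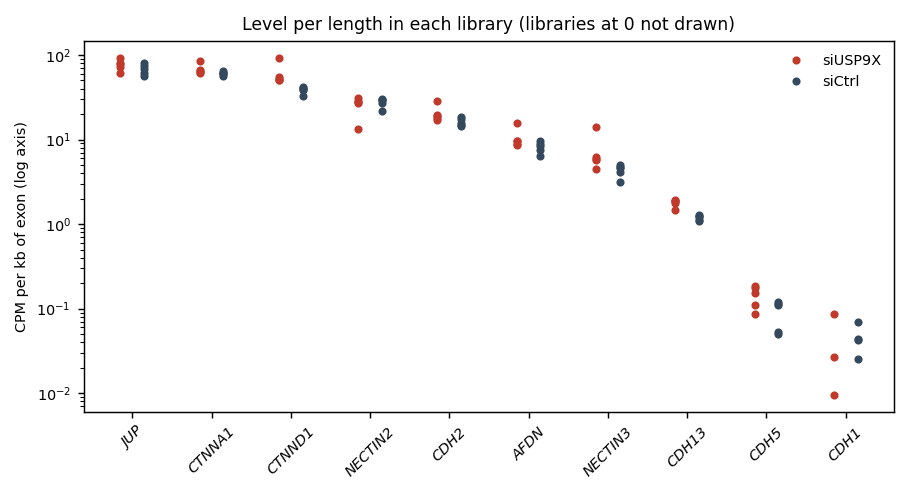
CPM per kilobase of exon (log axis) for the 10 genes in each library, ordered by their siCtrl mean; siUSP9X points stand left of siCtrl points, and CDH1 libraries at 0 are not drawn. JUP, CTNNA1 and CTNND1 lie highest, between 32.9 and 93.1, and CDH5 and CDH1 lowest, at 0.184 or less.

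Of the 10 members, 6 had an entry in RefSeq's promoter table (250 bases before to 50 after a start), namely CDH2, CTNNA1, JUP, AFDN, NECTIN2 and NECTIN3. These were searched for the E-box CACCTG on both strands (CAGGTG on the other), the letters that ZEB and SNAI repressors of CDH1 are known to bind, because ZEB1 and ZEB2 mRNA rose in siUSP9X cells (values below). Among 35116 RefSeq promoters of that length, 20.6% held at least 1 E-box and 0.168% held 4 or more. The cutoff of 4 equals the count in AFDN, so the 0.168% is a description, not a test. AFDN held 4, and 1 of the JUP starts held 2; the other entries of the 6 genes held none. Both promoters are shown 5′ to 3′ on the gene's strand, RefSeq on GRCh38.p14, with E-boxes in capitals (chr6:167827385-167827684, plus strand, for AFDN; chr17:41785927-41786226, minus strand, for JUP).
AFDN: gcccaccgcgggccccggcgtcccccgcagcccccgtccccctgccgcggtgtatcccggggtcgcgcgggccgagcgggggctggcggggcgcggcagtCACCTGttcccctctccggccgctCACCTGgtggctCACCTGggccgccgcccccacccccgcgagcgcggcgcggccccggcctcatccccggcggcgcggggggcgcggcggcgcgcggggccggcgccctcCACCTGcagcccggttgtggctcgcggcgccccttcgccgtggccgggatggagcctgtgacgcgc
JUP: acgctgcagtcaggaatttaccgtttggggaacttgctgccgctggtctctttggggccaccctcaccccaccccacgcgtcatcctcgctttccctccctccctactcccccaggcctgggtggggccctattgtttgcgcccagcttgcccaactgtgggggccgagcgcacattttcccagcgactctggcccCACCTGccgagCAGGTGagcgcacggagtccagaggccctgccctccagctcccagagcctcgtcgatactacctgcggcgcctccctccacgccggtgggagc
A match of these letters is a description of the window, not a binding site. AFDN and JUP mRNA did not pass the threshold.

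Of the related lists reported, cadherin repressors held 3 increases, genes for cadherin shedding, turnover and phosphorylation 3, and actin linkers 1. Of all 13934 tested genes 4.09% were called higher and 3.22% lower, and their median log2 fold change was 0.026. Of 6 measured of 9 cadherin repressors, 3 rose and 3 did not pass, with a list median log2 fold change of 0.605. ZEB1, a zinc finger repressor of CDH1, averaged 38.1 ± 13.4 CPM in siUSP9X and 19.1 ± 2.94 CPM in siCtrl (SD, n = 5 each), which is 0.99 ± 0.21 higher on the log2 scale (SE, adjusted p = 0.0181 with edgeR). ZEB2 averaged 6.08 ± 3.77 CPM in siUSP9X and 2.06 ± 0.638 CPM in siCtrl, and TCF4, a basic helix-loop-helix E-box factor, 14.8 ± 7.22 CPM in siUSP9X and 6.72 ± 0.994 CPM in siCtrl (SD, n = 5 each). All 3 were called without siUSP9X replicate 2 as well, where their log2 fold changes were 0.76, 1.1 and 0.78. Leaving out siCtrl replicate 2, 4 or 5 left 0 of the list higher and leaving out siCtrl replicate 3 left 1, while each other library left 3. At edgeR's unadjusted p under 0.05 the same count of 3 was found, and DESeq2 and limma-voom also gave 3 higher. SNAI2 had 1 count in siUSP9X and 0 in siCtrl, and CDH1, the target of these repressors, had the few counts given above.

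Of 15 measured of 16 genes for cadherin shedding, turnover and phosphorylation, 3 rose and 12 stayed short of the threshold. The list median log2 fold change was 0.355. The 3 were receptor tyrosine phosphatases, which act on junction proteins: PTPRM, which binds cadherins and p120 catenin, PTPRF and PTPRJ. The list's other tested tyrosine phosphatases did not pass the threshold. PTPRM averaged 60.9 ± 3.63 CPM in siUSP9X and 40.3 ± 3.96 CPM in siCtrl (SD, n = 5 each), with a log2 fold change of 0.59 ± 0.10 and the same value, 0.59, without siUSP9X replicate 2. PTPRF averaged 1052 ± 94.5 CPM in siUSP9X and 677 ± 96.6 CPM in siCtrl, and PTPRJ 143 ± 50.4 CPM in siUSP9X and 84.1 ± 11.5 CPM in siCtrl (SD, n = 5 each). PTPRM and PTPRF kept their calls in all 10 fits with 1 library removed and PTPRJ in 2. Without siUSP9X replicate 2 the log2 fold change of PTPRF was 0.60 and that of PTPRJ 0.52. In this list 6 genes were higher and 2 lower without siUSP9X replicate 2, and 7 and 2 with DESeq2. Of all tested genes 11.9% were higher and 11.5% lower without that library. With DESeq2 1264 and 1078 of 13934 tested genes were.

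Of 15 measured of 16 actin linkers, AJUBA, a LIM protein that binds alpha-catenin, rose (158.7 ± 9.88 CPM in siUSP9X and 112 ± 3.8 CPM in siCtrl, SD, n = 5 each), and CAMSAP3, which anchors microtubules near junctions, fell (6.39 ± 1.70 CPM in siUSP9X and 11.1 ± 1.57 CPM in siCtrl). The other 13 did not pass the threshold, and CAMSAP3 kept its call in 4 of the 10 fits with 1 library removed. DESeq2 gave 4 higher and 1 lower, beside 1264 and 1078 of 13934 tested genes. Without siUSP9X replicate 2, 4 were higher and 2 lower, beside 11.9% and 11.5% of all tested genes. AJUBA had a log2 fold change of 0.53 and CAMSAP3 of -0.65 without that library. No actin linker was lower without siCtrl replicate 2, 3, 4 or 5 or siUSP9X replicate 1 or 5.

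Among the other cadherins, catenins, nectins and desmosome genes, 1 passed the threshold. Of 12 desmosome genes 7 were measured and PKP3, which encodes the plaque protein plakophilin 3, fell (31.1 ± 4.27 CPM in siUSP9X and 60.3 ± 8.87 CPM in siCtrl, SD, n = 5 each, log2 fold change -0.96 ± 0.14 with adjusted p = 0.0027, edgeR), while 6 did not pass the threshold. PKP3 was called in all 10 fits with 1 library removed, at -0.89 without siUSP9X replicate 2. Without that library 1 desmosome gene was higher and 1 lower, beside 11.9% and 11.5% of all tested genes. DESeq2 gave 1 and 1 too. Of 19 other cadherins only CDH8 and CDH24 could be tested, and of 8 other catenins and relatives 5, and of 10 other nectins and nectin-like genes 3. In these 3 lists 0 passed the threshold with edgeR, 0 had an unadjusted p under 0.05, and 0 passed with DESeq2 or limma-voom. Without siUSP9X replicate 2 the alpha-catenin relative CTNNAL1 was lower (log2 fold change -0.32) and the poliovirus receptor gene PVR, a ligand partner of nectins, was higher (0.26), both named after their values were seen.

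**Figure D5:**
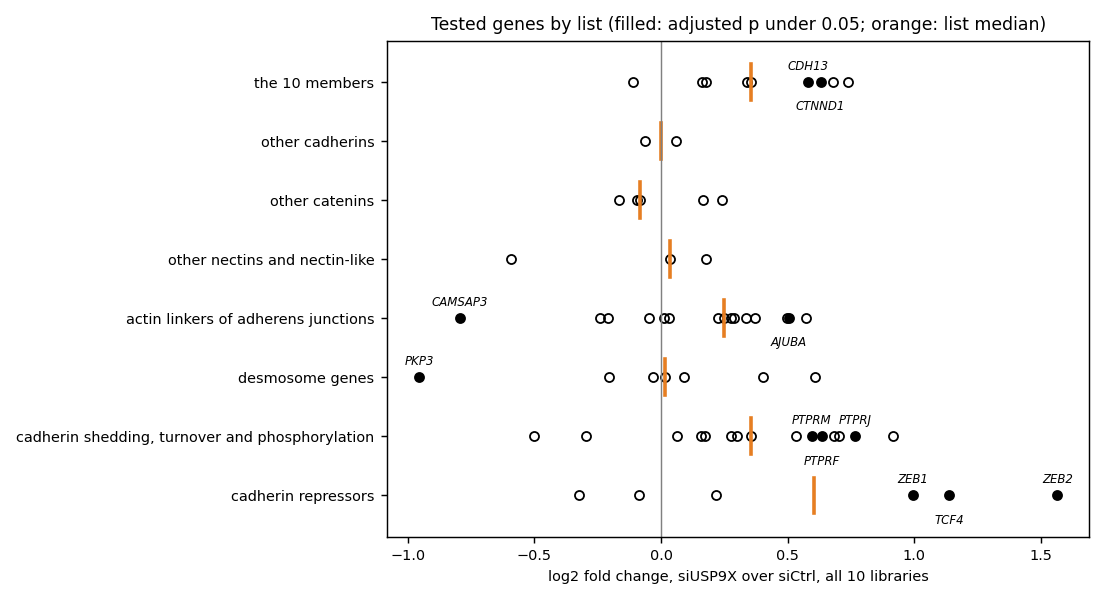
Log2 fold change of siUSP9X over siCtrl with all 10 libraries for the tested genes of the member list and of 7 related lists (1 point per gene; filled: adjusted p under 0.05, edgeR; orange line: list median). The member median is 0.36, and the 3 cadherin repressors called lie farthest to the right, at 0.99 or above.

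Over the 10 libraries CDH2, CTNNA1, CTNND1, NECTIN3 and AFDN varied together, with Pearson r of log2 CPM from 0.931 to 0.978 among them, and from 0.763 to 0.944 over the 9 libraries without siUSP9X replicate 2. NECTIN2 ran opposite to those 5 genes over all libraries (r from -0.891 to -0.756) and less so without replicate 2 (-0.381 to -0.00282). JUP varied most like NECTIN2 (r = 0.615, and 0.799 without replicate 2). These values are descriptions of libraries that share a group difference and 1 library that stood apart. Of all tested genes, the 3 most like CTNND1 over the 10 libraries were ANO6, TRIM37 and ZNF532 (r = 0.998, 0.996 and 0.996, and 0.995, 0.989 and 0.988 without replicate 2). Those most like CDH13 were AF117829.1, ARRDC4 and CERNA2 (r = 0.965, 0.953 and 0.951, and 0.959, 0.972 and 0.943 without replicate 2).

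Markers of other cell types differed between the groups beside these results. KRT18 and KRT8 fell in siUSP9X cells, with log2 fold changes of -0.74 ± 0.10 and -0.45 ± 0.12 (SE), and the sum of the 13 epithelial markers ran from 2346 to 3374 CPM in siUSP9X and from 3904 to 5066 CPM in siCtrl. KRT8, KRT18 and KRT7 stood at 1262, 768 and 308 CPM in siUSP9X replicate 2. In the other siUSP9X libraries they stood at 1573, 969 and 529 CPM or more. KRT8 kept its call in 3 of the 10 fits with 1 library removed and KRT18 in all 10. Their log2 fold changes were -0.67 for KRT18 and -0.38 for KRT8 without siUSP9X replicate 2. In that fit 5 of 6 tested epithelial markers and 2 of 4 tested endothelial markers were lower, beside 11.5% of all 14086 tested genes. With all 10 libraries 2 of 6 and 0 of 4 were lower, beside 3.22% of all tested genes. The sum of 8 mural markers ran from 4.68 to 8.23 CPM in siUSP9X and from 3.29 to 5.80 CPM in siCtrl, that of 6 fibroblast markers from 1.77 to 2.83 CPM in siUSP9X and from 1.46 to 2.60 CPM in siCtrl. The sums of 7 neural and 5 leukocyte markers were at most 0.477 and 2.01 CPM in any library. None of these 26 genes, 6 of them tested (RGS5 on 2 lines of the table), was called with edgeR, the mural markers MYH11 and RGS5 (1 line of 2) had an unadjusted p under 0.05, and their part in the junction gene results was not tested.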

How the data were processed

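RNA sequencing of 10 libraries, 5 per siRNA, was analysed from the deposited table of counts, whole numbers per gene symbol, not normalized. TRIzol RNA went into stranded mRNA libraries, per the labels' protocols. Per the submitters' processing notes, hg38, RSEM and DESeq2 were used; versions, aligner and annotation are not given in the sources used here, nor is whether the counts are rounded estimates, in which case reads shared by similar genes were split before deposit. Samples were grouped by title. Genes were tested with edgeR 4.0.16 (R 4.3.3; quasi-likelihood, robust, TMM factors, filterByExpr with a minimum count of 10, group as the only term), two-sided, with Benjamini-Hochberg adjustment over 13934 genes and a threshold of 0.05. CPM were computed from TMM-scaled totals, and exon lengths and coordinates come from GENCODE release 29 (GRCh38). SE is the absolute log2 fold change divided by the square root of F. Alternatives were other size factors, no filter, at least 5 CPM in 5 libraries, limma-voom (limma 3.58.1), DESeq2 1.42.0, the replicate block and each library left out; library quality weights, and the other settings for the related lists, were added after seeing the data. Genes named were USP9X, the members, CTNNB1, up to 4 called genes per list, marker genes called or above 10 CPM, and the 3 genes most like each called member; others named are endothelial or epithelial markers, genes named for low counts or as the ones that could be tested, overlapping genes, and CTNNAL1 and PVR, picked with their values in view. Members and lists were chosen with earlier results of these data known. A further gene list is not reported here. The lowest chi-square between replicates was 4.92 per degree of freedom, and every library was counted once. Deviations of equally numbered libraries had correlations of -0.367, -0.419, -0.0292, 0.228 and -0.0384 for numbers 1 to 5. In siUSP9X the deviations were taken from a mean that held replicate 2, which stood apart. These correlations therefore cannot tell whether the numbers pair libraries.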

Additional observations from a re-analysis of the deposited data

Results flagged for a closer look

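In siUSP9X replicate 2, 6 of the 10 genes lay far from the other 4 libraries of the group, judged by the gap to the nearest library as a share of the group's range (Dixon's criterion, critical value 0.71). It was the highest library for CTNND1 (807.2 CPM, share 0.894), AFDN (217 CPM, 0.883), NECTIN3 (85.83 CPM, 0.829), CTNNA1 (740.5 CPM, 0.800) and CDH2 (140.4 CPM, 0.774), and the lowest for NECTIN2 (49.73 CPM, 0.775). Over 20 groups examined, 6 were singled out, all in this library, where chance gives about 1 in 20 for independent groups. CDH13, CDH5, JUP and CDH1 were not among them. The genes vary together, so the groups are not independent, and the share of all tested genes singled out was not computed. By log2 ratio of replicate 2 to the mean of the other 4, most lay inside the bulk of tested genes. Their percentiles were 82.5 (CTNND1), 81.6 (AFDN), 95.1 (NECTIN3), 66 (CTNNA1), 74.8 (CDH2) and 15.6 (NECTIN2).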

How the results depend on the processing

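All tested genes gave 570 higher and 449 lower in siUSP9X, and 1264 and 1078 with DESeq2, 34 and 57 with the replicate block and 2473 and 2444 with library quality weights. With 1 library left out there were 170 to 1674 higher and 189 to 1620 lower, the highest counts of both without siUSP9X replicate 2; without another library they stayed at or under 516 and 375. Of the members 2 were higher, and 1 with DESeq2 size factors, 0 with the replicate block (2 at an unadjusted p under 0.05), 4 with library quality weights and 1 to 3 with 1 library left out. CTNND1 had adjusted p-values of 0.051 with DESeq2 size factors and 0.203 with the replicate block, and CDH13 0.1225 with the block. In each related list, cadherin repressors included, the replicate block left 0 genes called. With quality weights CDH2 (adjusted p = 0.0353) and NECTIN3 (0.00703) were also called. NECTIN2 turned to a log2 fold change of 0.052 without siUSP9X replicate 2 (-0.19 to 0.052 with 1 library left out) and was not called with any alternative. The causes were not tested. Member ratios kept their direction with a pseudocount of 1 CPM and with each library left out, but without siUSP9X replicate 2 the difference for NECTIN3 to NECTIN2 was 0.31 (0.80 with all), that for JUP to CTNND1 -0.18 (-0.42 with all) and that for NECTIN3 to AFDN 0.20 (0.30 with all). Depth limits CDH1, which could not be tested across genes, and CDH5, whose SE of 0.34 was the largest of the members tested.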
